A study of Mus musculus with 16 samples.

Results

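Before withdrawal of TERT, dorsal skin of both cohorts was represented by the 4 arrays titled 0 h out of the 16 arrays of the time course, chosen by that title alone. There were 2 arrays of TERT-on mice and 2 of TERT-off mice, 1 biopsy of 1 mouse each. All 4 mice were iK5-TERT, that is K5-tTA; tetop-TERT double transgenic animals in which the tetracycline transactivator drives Tert under the keratin-5 promoter, in the basal layer of the epidermis and the outer root sheath including the bulge. They were day 60 of age, had drunk doxycycline (5 mcg/ml) until a day between postnatal days 10 and 21 and plain water thereafter, and the labels give the follicles of every one as in anagen, the growth phase. The names of the cohorts refer to what came next: TERT-off mice received doxycycline (8 mcg/g) and TERT-on mice PBS, and the 12 other arrays are biopsies at 6, 12 and 24 h. The labels mark the 0 h biopsies of TERT-off mice as injected, whereas the study's methods place that biopsy before the injection. The biopsies covered 3 cm² and the subcutaneous fat was removed, so that each array mixes follicles, epidermis, dermis and whatever muscle lay beneath. The transgene limits the model to keratin-5 cells, and each cohort has 2 mice. The p-values below come from a fit that pools the spread over all 16 arrays. It treats serial biopsies of a mouse as nearly independent (correlation 0.0728), so that the p-values do not measure the spread between mice alone.

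A growing follicle is a column of concentric layers. Matrix keratinocytes at its base, in contact with the dermal papilla, divide and give rise to the hair shaft, built of hair keratins and the keratin-associated proteins that crosslink them, and to the inner root sheath, whose own keratins and trichohyalin mold the shaft. At the end of growth the matrix and these layers are lost, and the bulge keeps the stem cells from which the next follicle forms. In whole skin, fewer cells of a type and less RNA per cell cannot be told apart.

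Values are intensities of Affymetrix probe sets on a linear scale, given as replicate 1 and then replicate 2 of a cohort, and a difference is TERT-off minus TERT-on on the log2 scale with its standard error (SE) from a limma fit over all 16 arrays. The 4 arrays had median intensities of 32.9 to 35.6. Of 12580 genes tested, 12431 had a value on all 4 arrays, and these serve for ranges and overlaps. A pair of arrays stood apart, in different ways. TERT-off replicate 1 correlated with the other 3 arrays at r = 0.907 to 0.926 across probe sets, which are not independent replicates. The other 3 correlated among themselves at 0.952 to 0.966. Transcripts of the hair shaft were low in TERT-off replicate 1, where 6 of 9 hair keratins lay under the median intensity of the table. Its label also reads anagen, and the stage of its follicles was not tested. TERT-on replicate 1 had low 5′ signal on the control transcripts Gapdh and Actb, a measure of RNA quality. Results are therefore given with each of these arrays in view.

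Few genes passed the test between the cohorts before withdrawal. At an adjusted p under 0.05, 5 genes of 12580 were called (0.0397%), 4 higher in TERT-off mice (0.0318%) and 1 lower (0.00795%), while 996 genes (7.92%) had an unadjusted p under 0.05. The genes called were an interleukin-1 family cytokine of the epidermis (Il1f6), a protease inhibitor of the stefin family (Stfa3), a chitinase-like secreted protein (Chil1), an epidermal retinol dehydrogenase (Sdr16c5) and a small GTPase of the endosome and lysosome (Rab7b). Il1f6 had the largest difference of the 5 genes and Stfa3 the smallest adjusted p.

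Stfa3 read 514 and 386 in TERT-on mice and 2048 and 2119 in TERT-off mice, a difference of 2.23 (SE 0.18, adjusted p = 0.000898). The cohorts were far apart relative to the gap within either of them. Il1f6 read 32.8 and 24.8 in TERT-on mice, under the median of the table, and 382 and 215 in TERT-off mice (difference 3.33, SE 0.41, adjusted p = 0.0200). Chil1 read 58.1 and 40.0 against 309 and 187 (2.32, SE 0.30, adjusted p = 0.0308). For both, TERT-off replicate 1 was the higher of its pair. Sdr16c5 read 149.5 and 162 against 466 and 362 (1.40, SE 0.17, adjusted p = 0.0200). Rab7b was the gene called lower, at 284 and 303 against 56.3 and 103 (-1.94, SE 0.26, adjusted p = 0.0369). Only 1 of the 3 Rab7b probe sets passed the test, and the others gave -0.20 and 0.039, with cohorts that overlapped.

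The call of Stfa3 held without any 1 of the 4 arrays, with an adjusted p of at most 0.00957. Without TERT-off replicate 1 or without TERT-on replicate 1 it was the only 1 of the 5 genes that was still called, while without either replicate 2 all 5 were. The number of probe sets called moved with the array left out. It was 9 with all arrays. Leaving out the first or the other mouse of the TERT-off cohort gave 3 and 81, and of the TERT-on cohort 2 and 244, where a lone array is assumed to vary like the other groups. In a fit of the 4 arrays of 0 h alone, limma called 0 probe sets, with 753 at an unadjusted p under 0.05. There Stfa3 had an adjusted p of 0.449.

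The same mice kept these sides at the later times, where the biopsies of a mouse are not independent samples. For each of the 5 genes, all 8 arrays of TERT-off mice lay on 1 side of all 8 of TERT-on mice over the time course. Of all 12304 genes with a value on all 16 arrays, 129 were higher and 97 lower in TERT-off mice in this way. Among them were 208 genes with non-overlapping cohorts at 0 h and a difference of at least 2-fold there. Of these 208, 24 were higher and 6 lower in this way. Their 0 h arrays were separate by choice, so that the count describes the later arrays of the same mice alone. The 24 also held Il1f9, the stefin Stfa2l1, the serpins Serpinb1a and Serpinb6c, the lectins Clec2d and Clec12b, the cytokine-like Fam3b and the T cell costimulator Icos. The 6 lower were Gm6958, Rtkn2, Rab7b, Gprc5a, the membrane protease gene St14 and Ccdc25.

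**Figure D1:**
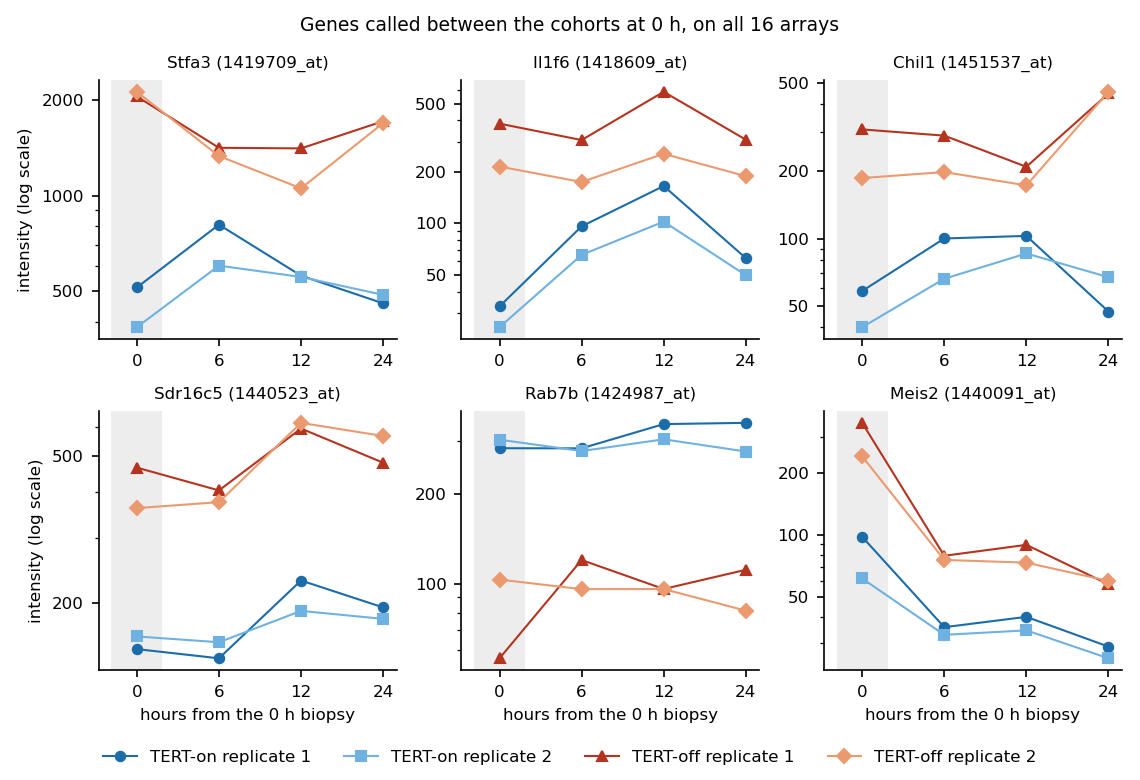
Intensity on a log axis against hours from the 0 h biopsy (times evenly spaced) for the 5 genes called between cohorts at 0 h and the called Meis2 probe set, 1 line per mouse and no averaging. In every panel the TERT-off mice (red and orange) and the TERT-on mice (blue) stay on separate sides at 0 h, shaded, where Stfa3 lies at 514 and 386 in TERT-on and 2048 and 2119 in TERT-off mice.

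The other called probe sets were 1 of Meis2, a homeobox transcription factor, and 3 that the platform annotation used here gives no single gene. The Meis2 probe set read 97.9 and 61.5 in TERT-on mice and 350.0 and 241 in TERT-off mice (difference 1.90, SE 0.23, adjusted p = 0.0200). The 3 other Meis2 probe sets differed by 1.29, 1.46 and 1.64 and were not called (adjusted p = 0.533, 0.214 and 0.0551), with TERT-off mice above TERT-on mice on each. The brightest of the unnamed probe sets read 894 and 572 against 2753 and 2559.

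Stfa3 lies among the stefin genes of mouse chromosome 16. Its promoter is shown as that of the gene with the firmest call. It spans chr16:36455343-36455642 on the minus strand of GRCm38.p6, from 250 bases before to 50 bases after the RefSeq start. It holds neither CTTTGAA, the core of a LEF/TCF site, nor TATAAA, the core of a TATA box, on either strand, so no letter is in capitals.
Stfa3: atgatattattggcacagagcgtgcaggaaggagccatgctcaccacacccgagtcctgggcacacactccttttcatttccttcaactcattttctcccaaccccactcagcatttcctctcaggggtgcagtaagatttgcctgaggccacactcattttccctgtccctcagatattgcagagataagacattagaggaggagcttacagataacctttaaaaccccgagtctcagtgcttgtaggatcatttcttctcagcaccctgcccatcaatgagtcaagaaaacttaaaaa

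Beyond the calls, the cohorts did not overlap at 3994 of 12431 genes (32.1%), 1801 higher (14.5%) and 2193 lower (17.6%) in TERT-off mice. Of these, 144 were at least 2-fold higher and 70 at least 2-fold lower. The largest differences upward were those of Il1f6, AA467197 (67.7 and 30.5 against 592 and 251), the small proline-rich proteins Sprr2d and Sprr2i, the calprotectin subunit S100a9, the late cornified envelope gene Lce3f, Ang4, Chil1, the chemokine Ccl2, Stfa3, Chil3 and the granzyme Gzmc. Downward they were Npy, Nnat, Hamp2, Gm6958, Rtkn2, Ifitm6, Rab7b, Mylk4, Cyp2g1, Asb15, Actn3 and Timp4, with Mylk4, Asb15 and Actn3 being muscle genes. Npy, a neuropeptide, read 329 and 234 against 6.33 and 197, so that its difference of -2.83 (SE 1.54) came from TERT-off replicate 1. Nnat, a proteolipid, read 387 and 309 against 45.7 and 78.2 (-2.53, SE 1.03) and was low in both mice. Of these 24 genes, those named as called above passed the test, and for the rest the adjusted p was at least 0.255.

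The hair shaft separated not the cohorts but 1 mouse from the other 3. Krt31, an acidic hair keratin of the cortex, read 2867 and 929.8 in TERT-on mice but 9.50 and 3304 in TERT-off mice. Krt33a read 3910.0 and 1359 against 5.16 and 4449.7, and Krt34 2900.3 and 779.9 against 9.87 and 3469.7. On all 9 hair keratins with 4 values TERT-off replicate 1 was the lowest array and TERT-off replicate 2 the highest. Their mean log2 intensity was 10.10 and 8.62 in TERT-on mice and 4.48 and 10.44 in TERT-off mice. With the 2 TERT-off mice at opposite ends, no hair keratin of the 12 tested, of 14 listed, was called and none had non-overlapping cohorts. Krt33b, Krt81 and Krt86 had no value in TERT-on replicate 1.

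The keratin-associated proteins did the same. Krtap8-1, a protein rich in glycine and tyrosine, read 5276 and 3281 against 9.34 and 6224. Krtap11-1 read 3056 and 1278 against 4.15 and 3085, Krtap22-2 3481 and 944 against 5.37 and 4367 and Krtap1-5 2541 and 915 against 5.77 and 3236. Of 50 listed, 33 were on the array and 32 were tested. TERT-off replicate 1 was lowest on 30 of 30 with 4 values, 28 of which lay there under the median of the table. The mean log2 intensities were 10.36 and 8.59 in TERT-on and 3.68 and 10.66 in TERT-off mice. Among the other 3 arrays TERT-on replicate 2 was the lowest, here and over the hair keratins.

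The promoters of Krt31 and Krtap8-1 are shown as those of 1 hair keratin and 1 keratin-associated protein near the floor in TERT-off replicate 1. The promoter of Krt34 holds both motifs, as that of Krt31 does. Capitals mark CTTTGAA and TATAAA, each searched on both strands without overlap between them. That of Krt31 is chr11:100050502-100050801 and that of Krtap8-1 chr16:89487903-89488202, both on the minus strand of GRCm38.p6 with the same window around the RefSeq start.
Krt31: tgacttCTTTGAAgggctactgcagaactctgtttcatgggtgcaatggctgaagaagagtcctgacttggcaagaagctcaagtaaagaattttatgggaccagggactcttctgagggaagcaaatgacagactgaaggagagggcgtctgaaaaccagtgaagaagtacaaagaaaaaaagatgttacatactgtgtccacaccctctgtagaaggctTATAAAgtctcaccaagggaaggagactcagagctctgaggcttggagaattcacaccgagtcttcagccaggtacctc
Krtap8-1: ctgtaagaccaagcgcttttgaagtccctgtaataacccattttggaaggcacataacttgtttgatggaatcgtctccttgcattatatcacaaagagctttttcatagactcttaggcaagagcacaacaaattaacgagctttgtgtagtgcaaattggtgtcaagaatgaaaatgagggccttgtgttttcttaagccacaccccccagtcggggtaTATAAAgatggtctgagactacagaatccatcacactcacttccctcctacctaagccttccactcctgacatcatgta
CTTTGAA was present in 4 of 7 hair keratin promoters listed (57.1%) and 5 of 30 of keratin-associated proteins (16.7%), against 5.27% of 27025 promoters in all. TATAAA was present in 71.4% and 83.3% of the same promoters, against 14.2% of all, and in 8 of 12 promoters of the wound list (66.7%). A match is a string of letters and not a site shown to be bound.

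The inner root sheath and companion layer followed the shaft. Krt71, a keratin of the inner root sheath, read 4478 and 3166 against 88.1 and 4071, Krt26 1234 and 681 against 11.9 and 1553, Padi3, a peptidylarginine deiminase acting on trichohyalin, 1633 and 822 against 19.4 and 1699, and Crym 1911 and 1136 against 24.2 and 1942. The means of 15 genes were 10.43 and 9.68 in TERT-on and 5.45 and 10.51 in TERT-off mice. Of proteins of the cuticle and cortex, S100a3 read 3137 and 2646 against 25.4 and 4089.9, Prr9 4686 and 3499.8 against 45.0 and 5013 and Fbp1 1051 and 929.5 against 23.2 and 1133. Gprc5d had no value on TERT-off replicate 2, so that its fitted difference rests on TERT-off replicate 1 alone (1339 and 416 against 7.61). Crct1 of this list read 3067 and 3335 against 2989.7 and 3523 and did not share the pattern.

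The regulators of the matrix, upstream of these layers, were lower in TERT-off replicate 1 by less. Hoxc13, a homeobox factor that switches on hair keratin genes, read 624 and 385 against 72.9 and 462. Dlx3 read 1149.7 and 615 against 136 and 740.4, Dlx2 235 and 173 against 47.4 and 131 and Sp6 588 and 309 against 98.0 and 424. TERT-off replicate 1 was the lowest array on 24 of 29 genes, and 10 of the 29 had TERT-off mice wholly below TERT-on mice (17.6% of all genes did). Among those 10, chosen here after their values were seen, was Shh, the hedgehog ligand of the matrix, at 438 and 470.1 against 224 and 238, so that both TERT-off mice were low and both kept signal. Lef1, the Wnt effector, read 293 and 258 against 142 and 227. None of the 29 was called, and 1 had an unadjusted p under 0.05.

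The median difference over a list was -1.63 for the 12 hair keratins, -2.42 for 32 keratin-associated proteins, -2.34 for 16 genes of the inner root sheath, -1.24 for 14 of cuticle and cortex and -0.59 for the matrix, where that of all genes was -0.023. Without TERT-off replicate 1 the first 4 of these turned positive, at 1.18, 1.17, 0.36 and 0.56, and that of the matrix was -0.084. Skeletal muscle genes also differed in level between the cohorts, as given further on, and their part in these values was not tested.

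Other compartments of the follicle were closer. For the dermal papilla, the mesenchymal cluster that instructs the matrix, list means were 6.85 and 7.03 against 6.60 and 6.62, with 5 of 19 genes wholly lower in TERT-off mice (17.6% of all genes were) and none higher (14.5%). These were Alpl, Corin (187 and 146 against 59.3 and 135), Sox2 (46.6 and 44.4 against 15.7 and 21.9), Scube3 (198 and 148 against 99.3 and 87.8) and Sostdc1 (911 and 1251 against 603 and 765). For bulge stem cells, the list means were 8.11 and 8.36 against 7.95 and 8.01, with 1 of 23 genes wholly higher and 6 lower, against the same shares. Krt15, a keratin of bulge cells, read 2468 and 2681 against 1041 and 1861, and Lhx2 666 and 638 against 330.0 and 398, while the surface marker Cd34 read 434 and 638 against 594 and 529.5. Melanocyte genes, which serve the growing shaft with pigment, were lowest in TERT-off replicate 1 on 13 of 15, for instance Mlana at 1459 and 915 against 333 and 1116 and Slc45a2 at 145 and 102 against 28.2 and 124. No gene of these 3 lists was called.

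**Figure D2:**
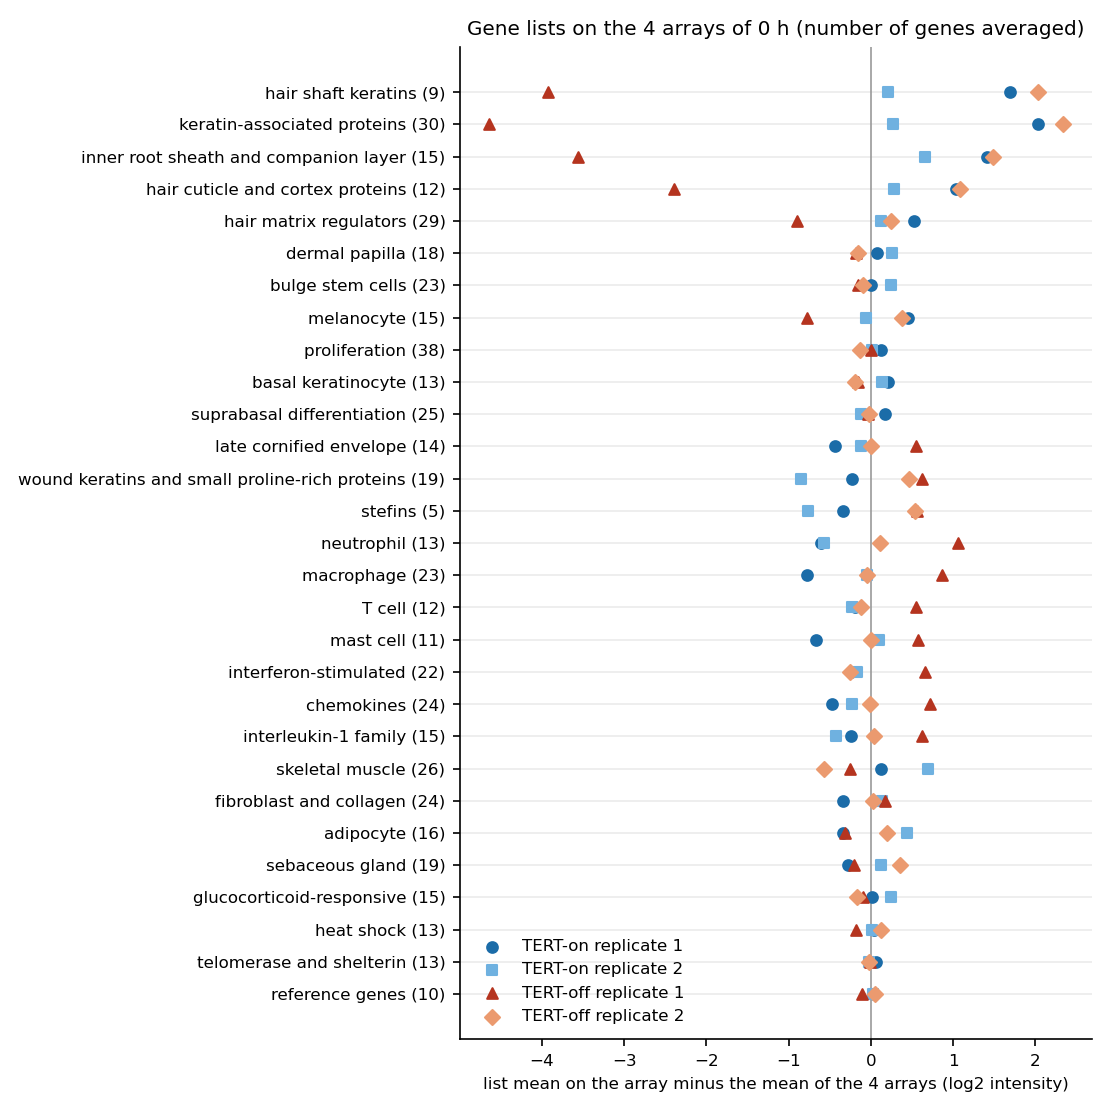
Mean log2 intensity of 29 gene lists on each of the 4 arrays of 0 h, as the difference from the mean of the 4 arrays, with the number of genes averaged in brackets; 1 symbol is 1 mouse and no error is drawn. TERT-off replicate 1 lies far below the other 3 arrays for shaft keratins (4.48 against 8.62 to 10.44 before centring) and keratin-associated proteins, and above them for most immune lists.

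Proliferation genes were expressed at like levels in all 4 mice, and slightly lower in TERT-off mice on many members. The means of 38 cell cycle genes were 8.12 and 8.01 in TERT-on and 7.99 and 7.86 in TERT-off mice, and 36 of them lay within 2-fold over the 4 arrays, as 82.8% of all genes did. The tightest were the mitotic kinesin Kif11 (137 and 144 against 140.2 and 148), the replication licensing factor Mcm2 (120.0 and 131 against 129 and 123), the replication clamp Pcna (2338 and 2451 against 2208 and 2213) and Cdk1 (899.8 and 872 against 789 and 824). TERT-off replicate 1, low on shaft transcripts, was not the lowest array on this list. In TERT-off mice 18 of the 38 lay wholly lower, where 17.6% of all genes did, and 1 wholly higher (14.5%), with a median difference of -0.13.

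In the epidermis, basal keratinocyte genes were slightly lower in TERT-off mice. Of 13 genes, 9 had TERT-off mice wholly below TERT-on mice (17.6% of all genes did) and none above, the median difference was -0.38, 5 had an unadjusted p under 0.05 (7.92% of all genes) and none was called. Col17a1, a hemidesmosomal collagen, read 1123 and 928 against 681 and 626, and the integrin Itga3 140.1 and 131 against 85.6 and 90.5. Krt5, whose promoter drives the transactivator, read 4190.1 and 3439.7 against 2616 and 2878 (-0.47, SE 0.15, adjusted p = 0.538), while its partner Krt14 read 4068 and 3935 against 3876 and 4012, a range of 0.07 on the log2 scale. All 13 lay within 2-fold over the 4 arrays. Suprabasal genes went both ways, with 4 of 26 wholly higher and 7 lower, where 14.5% and 17.6% of all genes were. At an unadjusted p under 0.05, 1 was higher and 4 were lower. Loricrin (Lor) read 5512 and 5864 against 3722 and 3414 and the lipid transporter Abca12 31.7 and 34.3 against 87.2 and 65.8.

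Genes of the wounded or hyperproliferative epidermis were higher in TERT-off mice as a group. Of 19 genes, 11 had TERT-off mice wholly above (14.5% of all genes did) and none wholly below. At an unadjusted p under 0.05, 7 were higher and 1, Krt17, was lower, and Il1f6 alone was called. The list means were 7.08 and 6.45 in TERT-on and 7.92 and 7.77 in TERT-off mice. S100a9, which with S100a8 forms calprotectin, read 54.8 and 39.8 against 411 and 227 (2.71, SE 0.53, adjusted p = 0.255), and Sprr2d, a precursor of the cornified envelope, 22.7 and 11.1 against 176 and 64.3 (2.75, SE 0.78, adjusted p = 0.507). Both TERT-off mice exceeded both TERT-on mice in each case, with replicate 1 the higher. Keratins of wounded epidermis differed in kind: Krt16 read 139 and 63.6 against 203 and 173, Krt6a 1696 and 1616 against 1291 and 1703, and Krt17, also a keratin of the follicle, 2394 and 2133 against 892 and 2156.

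The 5 stefins and cystatins tested, inhibitors of cysteine proteases, were all wholly higher in TERT-off mice (14.5% of all genes were), with 3 at an unadjusted p under 0.05 and Stfa3 called. Stfa2l1 read 53.2 and 24.7 against 156 and 139 and Csta1 1424 and 932 against 1819 and 1658. Stefin transcripts resemble each other, and probe sets may share signal between them. Of the late cornified envelope, all 4 Lce3 members tested were wholly higher in TERT-off mice. Lce3f read 27.9 and 33.7 against 178 and 176 (2.53, SE 0.53, adjusted p = 0.312) and Lce3c 34.1 and 52.2 against 87.0 and 152. Lce3a read 10.8 and 6.03 against 32.9 and 21.9, under the median of the table on all 4 arrays. The cohorts were barely apart on Lce3b, at 70.4 and 88.3 against 91.2 and 90.05 (0.20, adjusted p = 0.875). Of the 10 Lce1 members 1 was wholly higher and 1 wholly lower.

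Immune lists had positive median differences, but TERT-off replicate 1 had the highest mean in each list described here, TERT-off replicate 2 lay close to TERT-on mice in several, and Il1f6 alone was called. Macrophage genes had 11 of 24 wholly higher (14.5% of all genes were) and none lower (17.6%), with a median difference of 0.81 and 7 at an unadjusted p under 0.05 (7.92% of all genes). The list means were 7.35 and 8.08 in TERT-on and 8.98 and 8.08 in TERT-off mice, so that the replicates numbered 2 were alike and those numbered 1 lay at both ends. TERT-on replicate 1 was the lowest array on 23 of 23 genes with 4 values and TERT-off replicate 1 the highest on 22. The Fc receptors Fcgr1 and Fcgr3 read 10.2 and 21.4 against 93.3 and 34.7 and 215 and 311 against 795 and 395, the complement component C1qb 194 and 496 against 845 and 543 and the lectin Cd209d 107 and 162 against 405 and 199.6. TERT-on replicate 1 had the lowest 5′ to 3′ ratio of the control transcripts Gapdh (0.0599) and Actb, and the part of RNA quality in these values was not tested.

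Neutrophil genes had 8 of 14 wholly higher and 1 lower (14.5% and 17.6% of all genes were), a median difference of 1.11, and 8 at an unadjusted p under 0.05. The list held 22 genes, of which 19 were on the array and 14 were kept by the filter. The granule genes Ltf, Mpo, Elane and Camp were on the array but were not kept. Ltf, Mpo and Elane read at most 13.1, 8.91 and 32.3 on any of the 4 arrays, with cohorts that overlapped. Camp read 1 and 1 against 2.49 and 9.88, near or under the floor of 7.71. S100a8 read 169.7 and 86.6 against 492 and 442 and Lcn2, an iron-scavenging protein, 34.9 and 34.9 against 136 and 100.4, and keratinocytes also make these. S100a8, S100a9 and Lcn2 are on the wound list as well. Of the other members, Cxcr2 read at most 5.49 and Mmp8 at most 22.5 on any of the 4 arrays, the granule gene Ngp 72.7 in TERT-on replicate 1 and 66.8 and 78.1 in TERT-off mice, with no value in TERT-on replicate 2, and Mmp9 41.0 and 44.0 against 34.3 and 34.9, the 1 gene wholly lower. Chil3, a product of myeloid cells, read 8.73 and 21.5 against 146 and 27.2.

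T cell genes had 5 of 12 wholly higher (14.5% of all genes were), none lower. Icos read 31.4 and 31.1 against 83.1 and 60.8 (1.18, SE 0.26, adjusted p = 0.350) and the interleukin-7 receptor Il7r 52.8 and 44.0 against 125 and 59.6, whereas Foxp3 read 44.0 and 33.5 against 34.1 and 32.4. Mast cell genes had 5 of 11 wholly higher and none wholly lower. Among the 5 were the proteases Cma1 (164 and 334 against 548 and 443) and Cpa3 (332 and 626 against 1094 and 858), both lowest in TERT-on replicate 1. The mast cell tryptase Tpsab1 went the other way, at 40.0 and 56.8 against 42.6 and 9.15 (-1.27), lowest in TERT-off replicate 2. Of Langerhans and dendritic cell genes, 4 of 15 were wholly higher, and langerin (Cd207) read 179.7 and 186 against 426 and 196, high in TERT-off replicate 1 alone.

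Cytokine genes were next. Of 25 chemokines, 13 were wholly higher in TERT-off mice (14.5% of all genes were) and none lower, with 7 at an unadjusted p under 0.05 and a median difference of 0.51. Ccl2, which draws monocytes, read 7.58 and 12.8 against 80.8 and 28.4, Ccl7 19.2 and 33.7 against 172 and 57.3, Ccl17 31.5 and 50.6 against 138 and 68.6 and Ccl12 13.6 and 19.7 against 141 and 18.8. TERT-off replicate 1 was the highest array on 21 of 24 of them. Of 18 genes of the interleukin-1 family, 7 were wholly higher. These were the agonists Il1f6, Il1f9 (105 and 85.3 against 391 and 248), Il1a (70.7 and 47.5 against 172 and 102) and Il1b, the antagonist Il1rn (311 and 339 against 550.1 and 439.8), Il1f10 and the interleukin-18 binding protein Il18bp. The receptor genes Il1r1, Il1r2, Il1rl2 and Il1rap had overlapping cohorts. Interferon-stimulated genes were highest in TERT-off replicate 1 on 19 of 22 members, with means of 5.80 and 5.87 against 6.71 and 5.79. Ifit1 read 12.7 and 8.82 against 69.9 and 7.84 and Oas1a 32.9 and 24.0 against 116 and 42.7, and 3 of 22 were wholly higher, a share near that of all genes. Of complement genes, 7 of 15 were wholly higher.

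Without TERT-off replicate 1 the median difference was 0.34 for macrophage genes, 0.36 for neutrophil genes, 0.30 for chemokines and -0.0084 for interferon-stimulated genes, against 0.81, 1.11, 0.51 and 0.38 with it. For Langerhans and dendritic cell genes the median was 0.19, and from -0.091 to 0.53 with 1 array left out, so that its sign was not kept.

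Skeletal muscle transcripts were lower in TERT-off mice as a group. Dorsal skin lies on a thin striated muscle, the panniculus carnosus, and a biopsy can hold more or less of it. Of 28 genes, 19 had TERT-off mice wholly below TERT-on mice (17.6% of all genes did), none above, 6 had an unadjusted p under 0.05 and none was called. Actn3, an actin crosslinker of fast fibers, read 1326 and 1730.3 against 380.1 and 563 (-1.71, SE 0.50, adjusted p = 0.507). The calcium pump Atp2a1 read 3734 and 4396 against 1526 and 1471, glycogen phosphorylase Pygm 755 and 878 against 294 and 242 and the kinase Mylk2 111 and 132 against 40.5 and 38.9. TERT-on replicate 2 was the highest array on 25 of 26 genes. The list means were 10.08 and 10.66 against 9.71 and 9.40, and the median difference of -0.73 kept its sign under every alternative run, from -1.13 to -0.48 with 1 array left out.

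Genes that respond to glucocorticoids were lower in part. Of 16 genes, 6 were wholly lower (17.6% of all genes were) and 1 wholly higher (14.5%) in TERT-off mice, with 5 and 1 at an unadjusted p under 0.05 (7.92% of all genes in either direction). Fkbp5, a chaperone of the receptor, read 253 and 325 against 161 and 160.0, Zbtb16 153 and 262 against 50.9 and 104, Tsc22d3 727 and 931 against 442 and 526 and the kinase Pdk4 677 and 547 against 276 and 165. Both TERT-off mice were low on each of these, though not so for Per1 (184 and 259 against 294 and 248) or Sgk1 (951 and 892 against 744 and 952). The 1 gene higher was Lcn2, which is also on the neutrophil and wound lists. Of clock genes, 6 of 18 were wholly lower and 1 higher, and Arntl, a core activator of the clock, read 125 and 111 against 132 and 110.1.

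For other tissues the cohorts overlapped on most genes, and the counts that follow stand against 14.5% of all genes wholly higher and 17.6% lower. Of fibroblast and collagen genes, 4 of 24 were wholly higher, and Col1a1 read 1404 and 1998 against 1674 and 1741. Of adipocyte genes, 1 of 16 was higher and 3 lower, with Adipoq at 1641 and 2849 against 1414 and 2398 and Thrsp at 247 and 1117 against 997 and 1957, lowest in TERT-on replicate 1. None of 17 endothelial genes had non-overlapping cohorts. Sebaceous gland genes had 3 of 19 wholly higher, and Scd1, the desaturase of the gland, read 3882 and 5018 against 3591 and 5081. Of 19 genes of retinoid metabolism, the list of Sdr16c5, 7 were wholly higher and 2 lower, and Aldh1a1 read 197 and 158 against 135 and 96.3. Wholly higher and lower were 2 and 0 of 4 B cell genes, 1 and 1 of 9 nerve genes, 0 and 0 of 4 red blood cell genes, 3 and 3 of 22 immediate early genes and 0 and 2 of 13 heat shock genes.

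Each array was then set against the other 3. TERT-off replicate 1 lay at least 4-fold below all of them at 92 of 12431 genes (0.74%) and at least 4-fold above at 14 (0.113%), whereas TERT-on replicate 1 did so at 9 (0.0724%) and 0, TERT-on replicate 2 at 1 (0.00804%) and 0, and TERT-off replicate 2 at 3 (0.0241%) and 3 (0.0241%). Of the 92, 56 were on the 5 hair lists: 27 keratin-associated proteins, 8 hair keratins, 13 genes of the inner root sheath, 5 of cuticle and cortex and 3 of the matrix. The 5 farthest below were Krtap8-1, Krtap15, Krt33a, Krtap11-1 and Krtap22-2, all at or near the floor of 7.71 on this array, so that they have no order among themselves and no exact fold. The genes farthest above were Ccl12 (141 and 18.8 in TERT-off mice), Siglec1, a sialic acid receptor of macrophages (5.77 and 4.40 against 47.0 and 7.19), Clec4d, Slfn4 and Ifit1, which are myeloid or interferon-stimulated genes.

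The other arrays stood apart by single genes. TERT-on replicate 1 was lowest for Clec3b (11.4 and 365 against 234 and 210.2), Dapk3, Smim10l1, Barx2 and Thg1l, and at a 2-fold gap it lay below at 100 genes and above at 10. TERT-on replicate 2 was lowest for Krt6b (446 and 71.9 against 555 and 325), Zim3, Sprr2h, Tead4 and Sprr1b, of which Krt6b, Sprr2h and Sprr1b are on the wound list. It was highest for Cyp2g1 and for Jsrp1, Rtn2, Asb2 and Ldb3 (615 and 1587 against 603 and 438), of which Jsrp1, Asb2 and Ldb3 are muscle genes. TERT-off replicate 2 was lowest for Ifitm6, Tpsab1, Hamp2, Gdnf and Ctxn3, and highest for Traf3ip1 (38.1 and 26.8 against 37.2 and 267), Htr3a, Hectd3 (123 and 101 against 75.4 and 700.3), Atoh7 and Spink12.

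**Figure D3:**
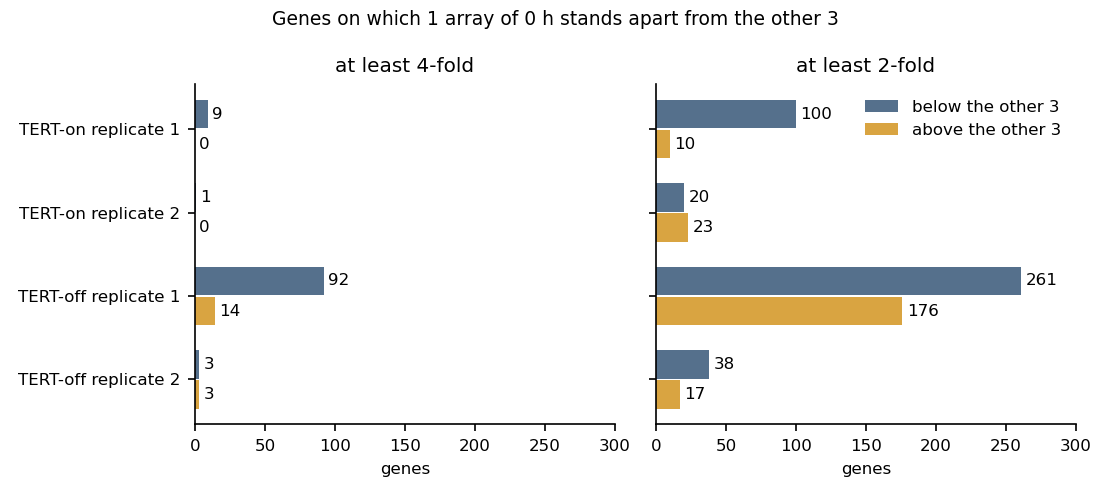
Number of genes, of 12431, at which 1 array of 0 h lies at least 4-fold (left) or 2-fold (right) below or above all 3 others. TERT-off replicate 1 has 92 genes below at 4-fold and 261 at 2-fold, more than any other array, and TERT-on replicate 1 is next below at 2-fold, with 100.

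RNA quality was read from control probe sets placed along a transcript. Labeling starts at the 3′ end, so that broken RNA loses 5′ signal. In TERT-on replicate 1 the 5′ probe set of Gapdh read 193 and the 3′ probe set 3224, a ratio of 0.0599, where the other 3 arrays of 0 h gave 1.00 to 1.09 and the 12 later arrays 0.977 to 1.12. For Actb the same array gave 0.368 and the other 3 gave 0.783 to 1.11. By Gapdh and Actb 1 array of the 4 was low. The transferrin receptor and pyruvate carboxylase did not set it low, at 0.501 (others 0.217 to 0.467) and 0.0308 (others 0.0169 to 0.0342). Their 5′ probe sets read at most 9.13 and 8.23 at 0 h, near the floor of 7.71. The middle probe set of Actb over the 3′ one was low in both replicates 1: 0.181 in TERT-on replicate 1, 0.221 in TERT-off replicate 1, 0.384 in TERT-on replicate 2 and 0.582 in TERT-off replicate 2, against 0.379 to 0.694 later. The middle 18S probe set read 32.3 and 180 in TERT-on and 203 and 633 in TERT-off mice at 0 h and 226 to 1431 later. Empty cells of the table, of 45101 probe sets, numbered 174 and 60 in TERT-on and 132 and 70 in TERT-off mice. The 2 arrays lowest by the Actb middle ratio were also those with most empty cells. Krtap8-1 read 5276 in TERT-on replicate 1 and 9.34 in TERT-off replicate 1. The part of RNA quality in hair shaft values was not tested. Spike-in controls overlapped between the 4 arrays and the later ones, with CreX at 5378 to 6651 and 4828 to 6689.

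**Figure D4:**
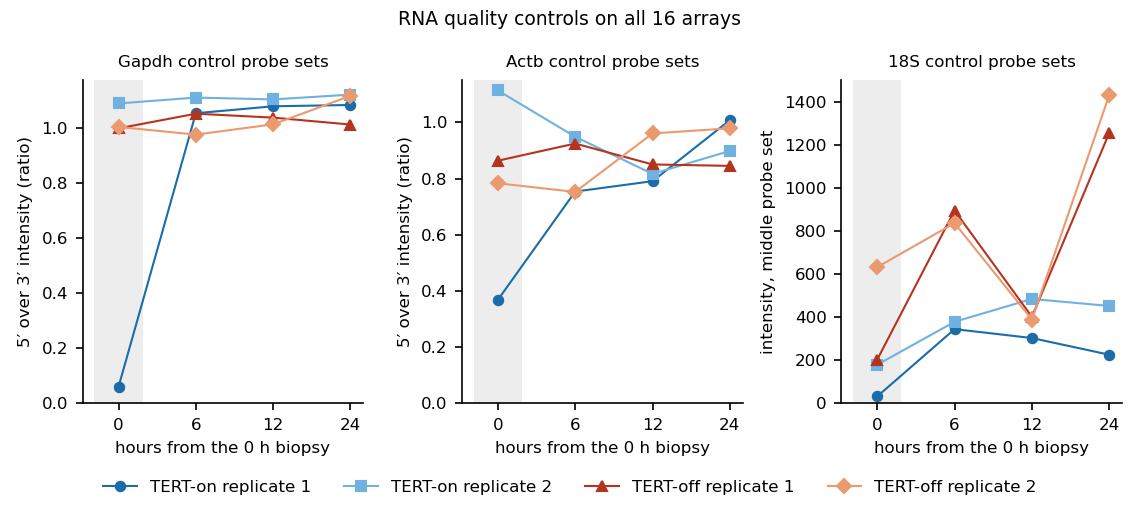
Ratio of 5′ to 3′ intensity for Gapdh (left) and Actb (middle) and intensity of the middle 18S control probe set (right) on all 16 arrays against hours from the 0 h biopsy (times evenly spaced), 1 line per mouse. TERT-on replicate 1 at 0 h is the 1 array with a Gapdh ratio far from 1, at 0.0599.

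Most of the transcriptome was common to the 4 mice. Of 12431 genes, 6848 (55.1%) lay within 1.5-fold over the 4 arrays, 10297 (82.8%) within 2-fold, and 383 (3.08%) spanned at least 4-fold, with a median range of 0.54 on the log2 scale. Oxidative phosphorylation and ribosomal genes had a median range of 0.26. Cox7a2, a subunit of cytochrome oxidase, read 3445 and 3425 against 3582 and 3724, Ndufs1 of complex I 620.4 and 665 against 679 and 651 and Uqcrb of complex III 4484 and 4924 against 4815 and 4814. Heat shock genes had a median range of 0.42, with the constitutive chaperone Hspa8 at 4722 and 4771 against 4496 and 4790.3. Among genes used as references, B2m read 4165 and 4077 against 4434 and 4073 and Rplp0 5684 and 6539 against 5753 and 6387, whereas Actb read 3297 and 3119 against 1554 and 3422, lowest in TERT-off replicate 1. The other Actb probe set tested read 1179 and 2739 against 1124 and 3341, low in replicate 1 of both cohorts.

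Telomerase and shelterin genes were also tight, with 13 of 13 within 2-fold and a median range of 0.36. Tert read 357 and 216 in TERT-on mice and 185 and 199.9 in TERT-off mice (-0.53, SE 0.43, adjusted p = 0.760). The 2 TERT-on mice were the higher, and the gap within TERT-on mice was larger than that between TERT-on replicate 2 and either TERT-off mouse. The partner Nop10 (1358 and 1277 against 1193 and 1321) of the telomerase particle, the shelterin protein Acd (278 and 343 against 330.0 and 300.2) and the RNP chaperone Wrap53 (48.3 and 43.4 against 39.5 and 42.3) were among the 4 with the smallest ranges. Xist read 3344 and 3405 against 2991 and 3151, and no Y-linked probe set was kept by the filter.

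What the 4 arrays of 0 h shared was also set against the 12 later ones, over both cohorts. A gene called here differed between 0 h and the mean of 6, 12 and 24 h; the later biopsies followed an injection and earlier biopsies of the same skin, which cannot be told apart from time. At an adjusted p under 0.05, 304 genes of 12580 were called (2.42%), 152 higher at 0 h (1.21%) and 152 lower (1.21%). In each of the 4 mice 96 of the 304 lay above and 87 below every later array of the same mouse. The 304 were called on these same arrays, so that both counts describe the called genes and do not test them. The number of probe sets called was 637 with all arrays, 23 and 259 when all arrays of the first or the other TERT-on mouse were left out, and 41 and 674 for the TERT-off mice.

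Higher at 0 h were Tert itself, with 22.6 to 64.6 on the later arrays of TERT-on mice, which received PBS, and 8.32 to 16.1 on those of TERT-off mice (3.36, SE 0.24, adjusted p = 3.20e-05), and muscle genes. Ampd1, an AMP deaminase of muscle, read 285 and 508 and 184 and 167 at 0 h and 35.3 to 102 later (1.99, SE 0.22, adjusted p = 0.00167). Aqp4 (2.59), Ky (1.97), Smco1, Phkg1, Dhrs7c and Asb15, which muscle expresses, were among the 12 largest, as were Tceal7, 3300002P13Rik and the corneal and dermal proteoglycan Kera. Of the muscle list 2 of 28 were called, Actn3 (1.45) and Pvalb (1.36), where 1.21% of all genes were called higher.

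Spred1, an inhibitor of Ras signaling, read 2073 and 1557 in TERT-on and 1133 and 1513 in TERT-off mice at 0 h and 288 to 679 later (1.87, SE 0.12, adjusted p = 1.70e-05). All 8 of its probe sets were higher at 0 h, by 1.24 to 2.07. In the RefSeq gene order of chromosome 2 the tested neighbors on either side were also called, Meis2 at 1.24 (adjusted p = 0.00165) and Fam98b at 0.74 (adjusted p = 0.00165), while Rasgrp1, next beyond Fam98b, was not (0.51, adjusted p = 0.114), nor were BC052040 and Dph6 beyond Meis2. Tmco5, between Meis2 and Spred1, was not tested. Heat shock genes had 3 of 13 called higher at 0 h (1.21% of all genes were), with the co-chaperone Hsph1 at 618 and 487 and 465 and 679 (1.25, SE 0.16).

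Lower at 0 h were genes of wounding and inflammation. Cxcl13, a B cell chemokine, read 55.6 and 65.7 and 78.3 and 77.0 at 0 h and 110 to 1714 later (-2.83, SE 0.13, adjusted p = 3.32e-06). Lcn2 (-2.45), the protease inhibitor Slpi (-2.30), S100a9 (-1.98), Krt16 (-1.91), S100a8, Mmp3 and Plac8 were among the 12 largest, with Inmt, Rrad and the homeobox genes Hoxc10 and Hoxa10. Of the lists, wound genes had 6 of 19 called lower at 0 h and none higher, where 1.21% of all genes were called lower. Neutrophil genes had 5 of 14 called lower, chemokines 5 of 25 and macrophage genes 3 of 24. S100a8, S100a9 and Lcn2, which keratinocytes also make, were counted on both the wound and the neutrophil list. This comparison and the one between cohorts share the 4 arrays of 0 h. Of the 5 genes called between cohorts, none was called here. The Meis2 probe set and an unnamed probe set called between cohorts were also called here by limma. Both were higher at 0 h (1.64 and 1.52, adjusted p = 0.000103 and 0.000652).

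**Figure D5:**
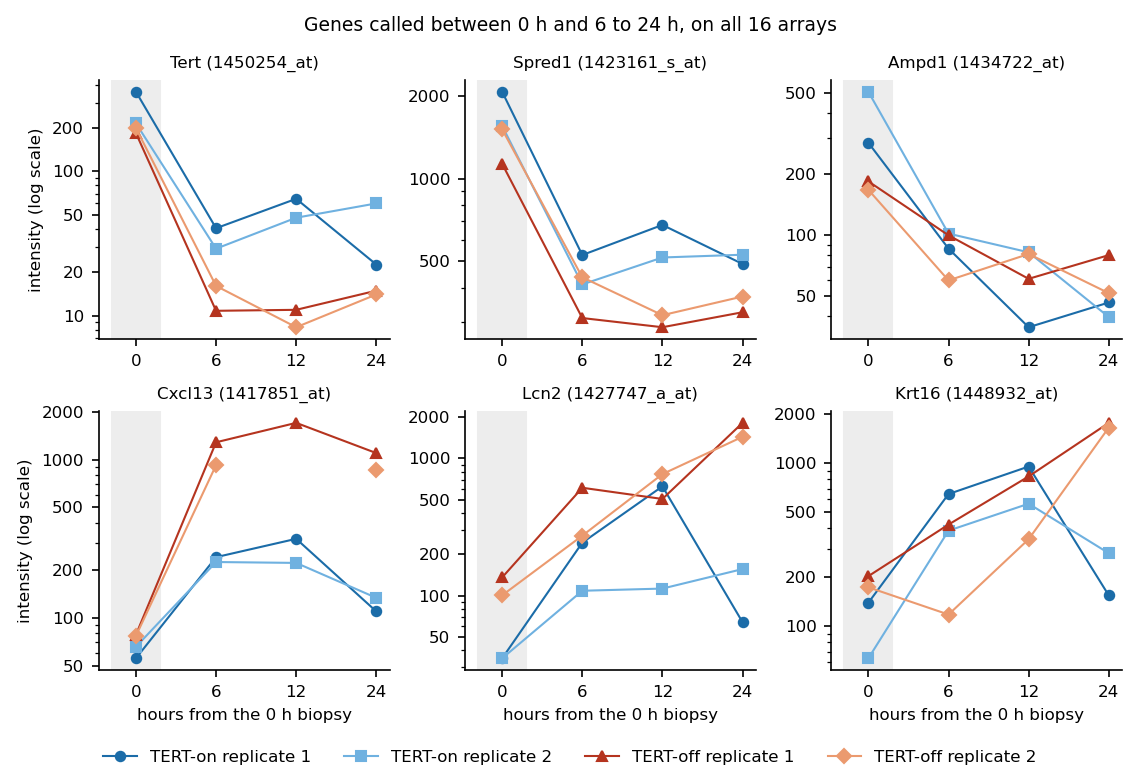
Intensity on a log axis against hours from the 0 h biopsy (times evenly spaced) for 3 genes called higher at 0 h (Tert, Spred1 and Ampd1) and 3 called lower (Cxcl13, Lcn2 and Krt16), 1 line per mouse, a gap where the table has no value. At 0 h the 4 mice lie together on Cxcl13, at 55.6 to 78.3, and apart on Lcn2, at 34.9 and 34.9 in TERT-on and 136 and 100.4 in TERT-off mice.

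Whether the cohorts differed in the change from 0 h, TERT-off minus TERT-on, was tested as well. They did so for 1 gene of 12580 (0.00795%), Cxcl13, on both of its probe sets, with 1803 genes (14.3%) at an unadjusted p under 0.05. Cxcl13 did not keep this call when a mouse was left out. Its probe sets had adjusted p of 0.122 and 0.119 without the second TERT-off mouse, 0.621 for both without the first TERT-on mouse and 0.107 and 0.0685 without the second. Without the first TERT-off mouse 1 of them gave 0.0802 and the other could not be tested. At 0 h itself the difference in that gene did not pass the test (0.36, SE 0.22, adjusted p = 0.691).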

How the data were processed

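RNA of dorsal skin was amplified and hybridised to Affymetrix Mouse Genome 430 2.0 arrays, 16 in all. The deposited intensity values had been made by the authors with dChip, by invariant-set normalization and a model of perfect-match and mismatch probes, and range from 1 to 16736 on a linear scale. The table holds 45101 probe sets and 1425 empty cells. Within a cohort, arrays that share a replicate number were treated as serial biopsies of that mouse. The platform annotation gave 34958 probe sets 1 gene symbol, 932 several and 9211 none, and 34754 probe sets matched RefSeq.

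Values were raised to a floor of 7.71 (percentile 20 of the table), which touched 0.298% of those kept, and log2-transformed. Probe sets above the table median of 34.4 on at least 2 arrays were kept, 13 without a value in a group were left out, and 25563 were tested. Means of 8 groups were fitted with limma 3.58.1 and statmod 1.5.0 in R 4.3.3, with the mouse as a random block (correlation 0.0728), moderated with a trend, and adjusted by Benjamini-Hochberg over all probe sets. A gene is its probe set of highest mean. An exact permutation test of 2 against 2 mice cannot go below p = 0.333 and was not used. Tested on simulated data for the comparison of cohorts at 0 h, over 25563 probe sets, the fit recovered 77 of 100 changes of 1.5 and 94 of 100 changes of 3 on the log2 scale, with 5 false calls. The simulated errors were normal, with the fitted mouse correlation and, for a probe set, equal spread in every group. It does not show how the fit behaves with an outlying 0 h array. Depth is not defined for arrays, and their number limits the precision. The alternatives were other floors, filters, scalings, blocks and moderation, and each mouse left out, which for the comparison and the lists at 0 h was its 0 h array alone and for both comparisons over time all its arrays. Figures were drawn with matplotlib 3.10.9.

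Genes were named by rule: those called, those with the 4 largest differences or smallest ranges of a list, the 12 largest non-overlapping differences and the 12 largest against later arrays in each direction, the 5 farthest on each array, and Tert, Krt5 and control genes. Adipoq, Arntl, Camp, Cd34, Cd3e, Cd4, Cd5, Col1a1, Crct1, Cxcr2, Elane, Fam98b, Foxp3, Hsph1, Il1rn, Krt17, Krt6a, Lce3b, Lef1, Ltf, Mmp8, Mpo, Per1, Pvalb, Rasgrp1, Scd1, Sgk1, Shh and Tsc22d3 were named after their values were seen. Counts of a list are of the members that the filter kept. The members and lists were chosen with earlier results of these data known. Annotation and promoters were credited to RefSeq (GRCm38.p6).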

Additional observations from a re-analysis of the deposited data

Results flagged for a closer look

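Of 45 values set over the 4 arrays of 0 h, 6 had 1 array far from the other 3, by the gap to the nearest array divided by the whole range (Dixon's ratio). Chance flags about 1 in 20 such groups. The Gapdh ratio of 5′ to 3′ signal gave 0.912, for TERT-on replicate 1. The gene list means gave 0.836 for the inner root sheath, 0.847 for T cells and 0.909 for interferon-stimulated genes, each for TERT-off replicate 1, the first low and the others high. The telomerase and shelterin list gave 0.878, with TERT-on replicate 1 at a mean log2 intensity of 7.83 and the others at 7.73 to 7.75, and the reference genes gave 0.849, with TERT-off replicate 1 at 10.06 and the others at 10.18 to 10.21.

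The change from 0 h differed between cohorts for both probe sets of Cxcl13, by 2.27 and 2.78 on the log2 scale (TERT-off minus TERT-on, limma, adjusted p = 0.0360 and 0.0295). With the replicate block the adjusted p was 0.0666 for both, without trend 0.0712 and 0.0563, and it was above the threshold in every fit with a mouse left out in which the probe set could be tested (0.0685 to 0.621).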

How the results depend on the processing

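The number of probe sets called between cohorts at 0 h, 9 in the fit reported, was 16 with the floor at the table median, 32 with no filter on low values and 0 in a fit of the 4 arrays alone (753 at an unadjusted p under 0.05), and 2 to 244 with a 0 h array left out. Against later arrays, where 637 were called, the number was 280 with no filter, 359 with no mouse block, 276 against 24 h alone (an alternative chosen after seeing the data) and 23 to 674 with a mouse left out. For the change from 0 h, TERT-off minus TERT-on, where 2 were called, it was 8 with the floor at the median, 22 with no filter, 1 with arrays centred on medians, 1 with no mouse block, 0 without trend (3332 at an unadjusted p under 0.05) and 0 to 28 with a mouse left out (the 0 came from leaving out the first TERT-on mouse, where 2012 had an unadjusted p under 0.05). With the replicate number as a fixed replicate block (over time, the mouse) the 3 comparisons called 11, 431 and 0 (3586 at an unadjusted p under 0.05), and the samples share only a number (correlation of deviations at 0 h -0.0487). Of the 5 genes called, 2 were called with no filter (Stfa3 and Sdr16c5) and 4 with arrays centred on medians (not Chil1). For Actb, not called in either comparison, the difference between cohorts was -1.05 to 0.10 with a 0 h array left out and that against later arrays -0.54 to 0.070 with a mouse left out, positive without TERT-off replicate 1. The cause of these shifts was not tested. The median difference kept its sign under every alternative run in 18 of 39 lists. Over all results and alternatives, 690 values kept direction and side of the threshold, 123 no longer passed, 3 newly passed and 2 reversed.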
